A study of Mus musculus with 4 samples.

Results

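The enzymes that make and break down eicosanoids and platelet-activating factor (PAF) were followed here through the repressive histone mark H3K27me3. The group held 10 genes of the 27095 in the deposited count table: Pla2g4a, Ptgs1, Ptgs2, Ptges, Hpgd, Alox5, Alox5ap, Ltc4s, Alox15 and Lpcat2. They were picked by gene symbol from the lipid mediator pathways, with the genotype differences in these libraries already known, so their changes between genotypes are given as description, without p-values. The mark was profiled by Cut&Tag, in which an antibody directs a transposase to cut and tag the chromatin around the mark, in sorted alveolar macrophages of the mouse lung. The study had 2 Suz12 conditional knockout (cKO) libraries and 2 wild-type libraries on a C57BL/6 background, labelled as biological replicates. All came from bone marrow chimeras: irradiated Ly5.1 hosts received marrow that was 90% Ly5.2, either Suz12 cKO or wild type, with 10% wild-type Ly5.1 marrow in both groups. The sources used here name neither the Cre driver nor any separation of Ly5.2 from Ly5.1 cells in the sort. A mark carried by all cells at a low level cannot be told apart from one carried by a share of the cells.

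Suz12 is an obligate subunit of PRC2, the complex that places H3K27me3 on genes held silent. Eicosanoids are made from arachidonic acid, which phospholipase A2 releases from membranes. Cyclooxygenases turn it into prostaglandins and lipoxygenases into leukotrienes, lipoxins and related acids. PAF is an ether phospholipid made by a neighbouring branch that remodels the same membrane lipids. Macrophages are a major source of all of these mediators, and alveolar macrophages are known for their capacity to make leukotrienes.

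The promoters of the 3 genes called by edgeR between genotypes, at an adjusted p below 0.05, are printed because PRC2 is known to bind CpG-rich DNA. The call at Pla2g4a was not made under every alternative setting. They are the 250 bases before the promoter table's start site (RefSeq, GRCm38.p6, the assembly also named mm10), 5′ to 3′ along the gene, and capitals mark every CG dinucleotide. Hpgd lay at chr8:56294302-56294551 on the plus strand, Lpcat2 at chr8:92855083-92855332 on the plus strand and Pla2g4a at chr1:149961291-149961540 on the minus strand. For Lpcat2 that start site lies inside the gene span of the reference table, which begins at 92855313.
Hpgd: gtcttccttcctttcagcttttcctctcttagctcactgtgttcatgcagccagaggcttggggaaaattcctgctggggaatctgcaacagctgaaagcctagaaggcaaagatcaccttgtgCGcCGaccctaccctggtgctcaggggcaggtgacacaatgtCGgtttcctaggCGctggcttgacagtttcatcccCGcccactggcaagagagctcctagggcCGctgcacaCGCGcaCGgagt
Lpcat2: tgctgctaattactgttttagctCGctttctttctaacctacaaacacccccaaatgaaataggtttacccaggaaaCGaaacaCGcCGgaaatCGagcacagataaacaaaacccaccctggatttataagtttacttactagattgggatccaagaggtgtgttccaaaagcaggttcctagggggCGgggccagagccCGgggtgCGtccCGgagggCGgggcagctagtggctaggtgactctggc
Pla2g4a: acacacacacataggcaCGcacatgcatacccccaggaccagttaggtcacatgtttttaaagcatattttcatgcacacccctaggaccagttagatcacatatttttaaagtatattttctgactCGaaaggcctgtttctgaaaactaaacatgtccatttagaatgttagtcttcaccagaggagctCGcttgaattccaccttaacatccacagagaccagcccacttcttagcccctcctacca
The Hpgd promoter held 9 CG dinucleotides and the Lpcat2 promoter 10, against 3 at Pla2g4a. Of 32851 mouse promoters of this length, 40.3% held at least as many as Hpgd, 37.8% at least as many as Lpcat2 and 71.0% at least as many as Pla2g4a, so such counts are common. CG reads the same on both strands. Promoters were matched for 8 of the 10 genes. Among them Ptgs2 had the most, 13, and an alternative Pla2g4a promoter the fewest, 1. Ptgs2, with the most, carried a level of mark below the median of all tested genes. By reference positions 41.1% of its window was shared with another, so that level is uncertain. Whether CG counts go with the mark was not tested.

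The cKO libraries held 3331138 and 3567282 counts and the wild-type libraries 2592297 and 2142175. Replicates were not copies of each other: the chi-square per degree of freedom was 1.79 for the cKO pair and 1.94 for the wild-type pair. Counts were taken per gene window, the gene with 3000 bp on each side, and given as CPM, which is counts scaled to the library, or as CPM per kb of window. The targeted gene carried almost no mark: Suz12 had 11 and 10 counts in cKO and 8 and 10 in wild type, which does not check the deletion. A set of 20 alveolar macrophage identity genes stood at medians of 0.136 and 0.146 CPM per kb in cKO and 0.146 and 0.116 in wild type. Gene sets of T and NK cells, B and plasma cells, granulocytes and mast cells, lung epithelium, and endothelium and fibroblasts stood higher, at 0.694 to 2.49 in cKO and 0.56 to 2.48 in wild type. The identity genes of the labelled cell type thus had less of the mark than those of the other types. Over all genes, 16752 passed the count filter and 6.42% of them were called by edgeR at an adjusted p below 0.05 (747 gained in cKO and 329 lost). Gains made up 69.4% of these calls with the scaling used here, but 55.7% where only library totals were used, 48.8% with upper-quartile factors and 87.5% when scaled to housekeeping genes. The housekeeping scaling rests on 30 genes with little mark, of which 7 passed the count filter. Their medians were 0.074 and 0.0585 CPM per kb in cKO and 0.051 and 0.0417 in wild type over all 30. Because CPM are shares of a library, they cannot show a loss that is equal everywhere.

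The 10 enzyme genes ranged from strongly marked to nearly free of the mark, and Alox15 was the highest and Pla2g4a the lowest in both genotypes. Alox15 stood highest, at 7.68 ± 0.599 CPM per kb in cKO and 7.57 ± 1.10 in wild type (SD, n = 2 each), above 96.6% of tested genes in wild type. In wild type Lpcat2 followed at 3.48 ± 0.479 CPM per kb and Ptgs1 at 1.91 ± 0.0218. The other 7 genes lay below the wild-type median of 0.672 CPM per kb. Next came Ptges at 0.567 ± 0.0833, Ptgs2 at 0.401 ± 0.132, Ltc4s at 0.260 ± 0.0438 and Hpgd at 0.165 ± 0.0651. Alox5ap, Alox5 and Pla2g4a were lowest, at 0.138 ± 0.00593, 0.131 ± 0.0834 and 0.104 ± 0.0273, near the level of the identity genes. In this order the ranges of Hpgd and Alox5ap, of Alox5ap and Alox5, and of Alox5 and Pla2g4a overlapped between libraries, while the other neighbouring pairs did not overlap. In cKO Hpgd moved up to rank 4, at 0.931 ± 0.147 CPM per kb, beside Ptges at 0.905 ± 0.0507. Lpcat2 came down to 1.79 ± 0.0672 and overlapped Ptgs1 at 1.79 ± 0.00484. Pla2g4a remained the lowest, at 0.0446 ± 0.00912, and 0.681% of tested genes were lower in cKO.

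**Figure D1:**
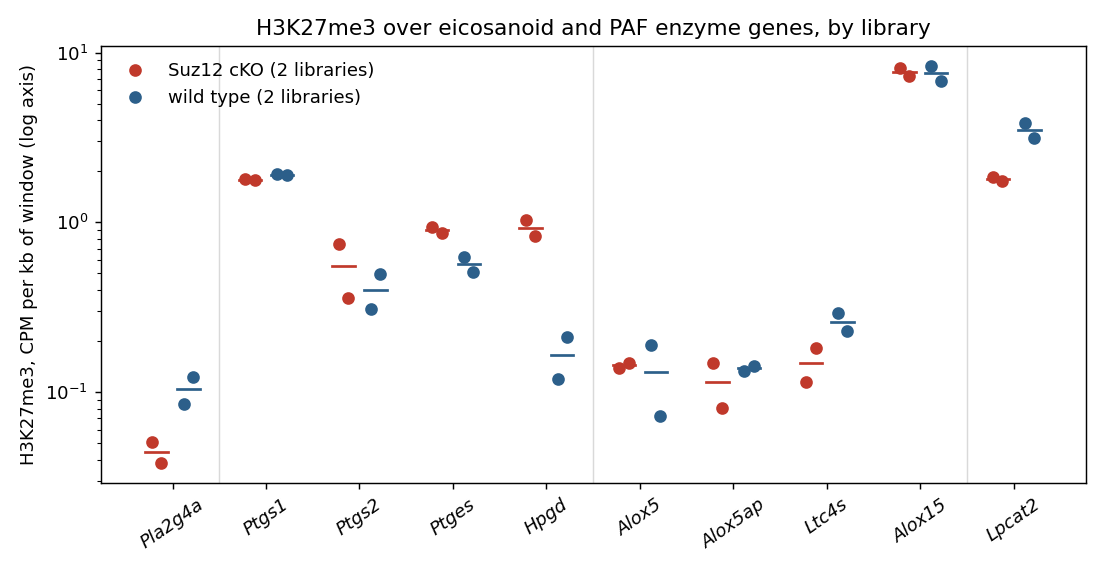
H3K27me3 over each of the 10 enzyme genes, in CPM per kb of window on a log axis, with a point per library, a bar at the mean, Suz12 cKO in red and wild type in blue. The cKO points lie above the wild-type points at Hpgd and below them at Lpcat2 and Pla2g4a, while Alox15 is high in all 4 libraries.

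**Figure D2:**
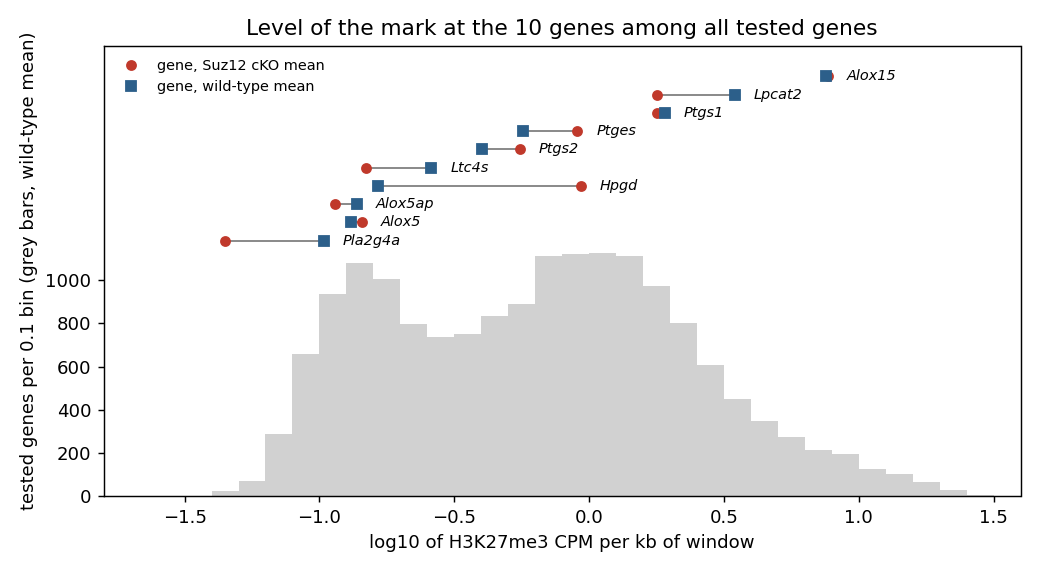
Mean level of each enzyme gene in Suz12 cKO (red circles) and wild type (blue squares) over the distribution of the wild-type level of the 16752 tested genes (grey bars, genes per bin of 0.1 on the log10 scale). Alox15 sits at the high end, Pla2g4a at the low end, and Hpgd has the longest line between its means.

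Between genotypes 3 of the 9 genes that passed the count filter were called, 1 gained and 2 lost, against 6.42% of all tested genes, of which 4.46% gained and 1.96% lost. The genes were chosen with this contrast known, so nothing is read from that share. Ltc4s did not pass the filter. The CPM of the genotypes did not overlap at 5 of the 9 tested genes, a state shared by 47.6% of all tested genes. The median log2 fold change was 0.01 over the 9 genes and −0.01 over all tested genes.

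Release of arachidonic acid came first in the pathway. Pla2g4a encodes cytosolic phospholipase A2, which frees arachidonic acid from membrane lipids. It had 23 and 18 counts in cKO, against 30 and 37 in wild type, over a window of 137.663 kb. As CPM these were 7.03 and 5.26 in cKO and 11.6 and 16.9 in wild type. Both cKO libraries lay below both wild-type libraries, with a log2 fold change of −1.20 ± 0.37 (SE) and a call of lost. The level was low in both genotypes, so this is a change within a nearly unmarked gene. Of 7 tested housekeeping genes, from a set that was also weakly marked, 3 were higher in cKO and none was called. Among them 2 had an unadjusted edgeR p below 0.05, both lower in cKO. Whether weakly marked genes as a group were lower in cKO was not tested. The call was not made without cKO replicate 2, without wild-type replicate 2 (−0.91) or with housekeeping scaling (−1.07), and DESeq2 gave no adjusted p for the gene.

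The prostaglandin enzymes included the gene of largest gain in the group. Hpgd encodes the dehydrogenase that inactivates prostaglandins. It held 110 and 92 counts in cKO, against 10 and 15 in wild type, and no other window overlapped it. The CPM were 33.6 and 26.9 in cKO and 3.88 and 6.87 in wild type, so the groups lay far apart. The log2 fold change was 2.51 ± 0.31 (SE), a 5.70-fold higher level in cKO. In wild type 19.4% of tested genes had a lower CPM per kb than Hpgd, and in cKO 58.6% did, so Hpgd in cKO reached a middling level and not that of strongly marked genes. It was called under all 12 alternatives run, with log2 fold changes of 2.14 to 2.96.

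The enzymes that make prostaglandins were not called. Ptgs1 encodes the constitutive cyclooxygenase. It had 163 and 170 counts in cKO and 138 and 115 in wild type, or 49.8 and 49.6 CPM in cKO and 53.5 and 52.7 in wild type. The cKO values lay just below the wild-type values, with a log2 fold change of −0.09 ± 0.16. Ptgs2 encodes the cyclooxygenase induced by inflammatory signals. It had 34 and 17 counts in cKO and 11 and 15 in wild type, or 10.4 and 4.96 CPM in cKO and 4.27 and 6.87 in wild type. These groups overlapped, and the log2 fold change of 0.47 ± 0.45 was −0.14 without cKO replicate 1. By reference positions 41.1% of the Ptgs2 window was shared with the window of Ptgs2os, a transcript annotated as its opposite strand, and strand plays no part in such counts, so the Ptgs2 values are uncertain. Ptges encodes the microsomal prostaglandin E synthase that acts after Ptgs2. It had 61 and 59 counts in cKO and 32 and 22 in wild type, or 18.7 and 17.2 CPM in cKO and 12.4 and 10.1 in wild type. The groups did not overlap, but the log2 fold change of 0.66 ± 0.30 did not lead to a call.

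The leukotriene genes had very little mark in either genotype. Alox5 encodes the lipoxygenase that starts leukotriene synthesis. It had 26 and 29 counts in cKO and 28 and 9 in wild type, or 7.95 and 8.47 CPM in cKO and 10.9 and 4.12 in wild type. The cKO values lay between the wild-type values. Its log2 fold change of 0.10 ± 0.40 depended on the wild-type library used, at 0.99 without wild-type replicate 1 and −0.39 without wild-type replicate 2. Alox5ap encodes the membrane protein that hands arachidonic acid to Alox5. It had 14 and 8 counts in cKO and 10 and 9 in wild type, or 4.28 and 2.34 CPM in cKO and 3.88 and 4.12 in wild type. These groups overlapped, with a log2 fold change of −0.27 ± 0.60. Ltc4s encodes leukotriene C synthase, which adds glutathione to make the cysteinyl leukotrienes. It had 3 and 5 counts in cKO and 6 and 4 in wild type, and the window of Mgat4b covered 57.5% of its own. The ratio of cKO to wild-type counts per library total at Ltc4s was 0.549, and its 95% interval (exact binomial, counting error only) ran from 0.188 to 1.55. Replicates varied by more than counting error, so the true interval is wider.

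Alox15 was the strongly marked lipoxygenase of the group. It encodes the enzyme that makes hydroxy acids and lipoxin precursors and is known as a gene of resident peritoneal macrophages in the mouse. It had 368 and 345 counts in cKO and 299 and 206 in wild type, or 113 and 101 CPM in cKO and 116 and 94.3 in wild type. The genotypes overlapped, and the log2 fold change was 0.01 ± 0.12, running from −0.11 to 0.18 over the 12 alternatives. Its standard error was among the smallest of the group, beside that of Lpcat2.

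Lpcat2 was the well-marked gene called as lost. It encodes the acyltransferase that makes PAF in stimulated macrophages. It had 421 and 418 counts in cKO, against 689 and 480 in wild type, although the cKO libraries were larger. The CPM were 129 and 122 in cKO and 267 and 220 in wild type, with both cKO values below both wild-type values. The log2 fold change was −0.96 ± 0.11 (SE), a ratio of 0.514. In wild type 90.3% of tested genes were lower per kb, and in cKO 77.3% were, so the mark was reduced and not absent. Lpcat2 was called under all 12 alternatives run, with log2 fold changes of −1.08 to −0.80. Other windows overlapped 15.9% of its window, among them that of Capns2, which held 0 counts in every library. Reads in overlapping windows may not have been counted, so those 0 counts do not show that Capns2 lacked the mark.

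**Figure D3:**
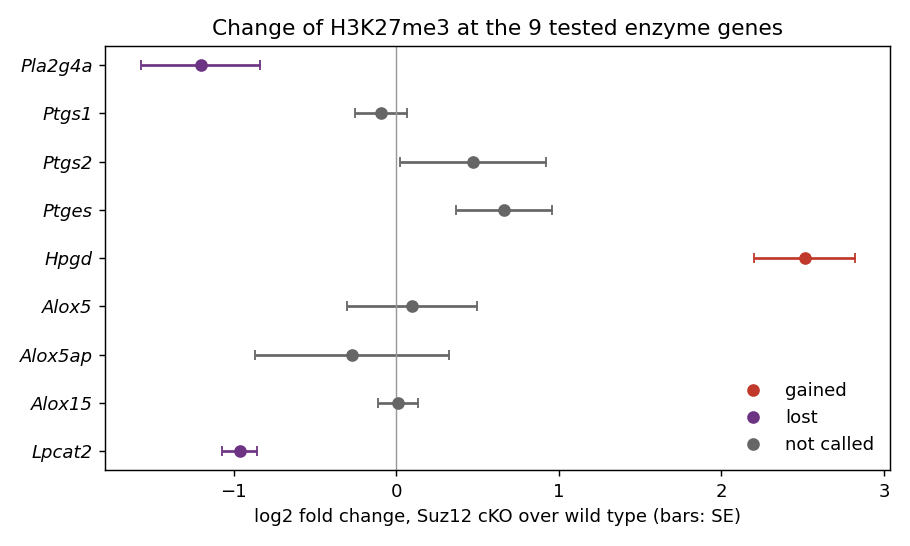
Log2 fold change of H3K27me3, Suz12 cKO over wild type, at the 9 enzyme genes that passed the count filter, with bars of 1 SE. Hpgd lies at 2.51 and Lpcat2 and Pla2g4a at −0.96 and −1.20, while the 6 grey genes lie between −0.27 and 0.66.

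H3K27me3 often covers long stretches of chromatin, so the nearest named genes were set beside the enzyme genes. Of 24 such neighbours 15 were tested and 2 were called, both lost, against 6.42% of all tested genes called and 1.96% lost. The neighbours of Lpcat2 differed among themselves. Mmp2, which encodes a gelatinase and whose window overlaps that of Lpcat2, was itself strongly marked, at 7.89 and 7.93 CPM per kb in cKO and 11.2 and 10.3 in wild type. Mmp2 lost the mark by a log2 fold change of −0.45 ± 0.10 (SE, edgeR adjusted p = 0.000264), lower in both cKO libraries. That call was not made without cKO replicate 1 (adjusted p = 0.0517), without cKO replicate 2 (adjusted p = 0.0569) or with housekeeping scaling (adjusted p = 0.388). On the other side, 41.2 kb from Lpcat2, Slc6a2, the noradrenaline transporter gene, had 2.96 and 3.82 CPM per kb in cKO and 3.39 and 3.04 in wild type. It was not called (log2 fold change 0.08 ± 0.11, adjusted p = 0.783), and the 95% interval of −0.14 to 0.30 does not reach the loss at Lpcat2. Irx6, a homeobox gene 174 kb before Lpcat2, was not called either (0.04 ± 0.21, adjusted p = 0.948). Its cKO libraries stood apart, at 70 and 132 counts. Whether the change at Lpcat2 differs from that at Mmp2 was not tested.

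No gain was called at the neighbours of Hpgd, and no gene nearer than 164 kb was examined. Glra3, a glycine receptor gene 164 kb away, had 0.446 and 0.440 CPM per kb in cKO and 0.507 and 0.594 in wild type. It was not called (log2 fold change −0.31 ± 0.13, adjusted p = 0.142), and its direction was opposite to that of Hpgd. It was called as lost with upper-quartile factors (adjusted p = 0.0474) and in the fit restricted to genes averaging 50 counts or more (adjusted p = 0.034). Cep44, a centrosomal gene 210 kb on the other side, held 3 and 8 counts in cKO and 5 and 11 in wild type and was not tested. Pla2g4a and Ptgs2 are themselves neighbours, 139 kb apart on chromosome 1. Ptgs2os between them was not called (log2 fold change −0.10 ± 0.24, adjusted p = 0.878), with a 95% interval of −0.57 to 0.37. Whether the change at Pla2g4a differs from that at Ptgs2os was not tested. Beside the weakly marked Alox5, Zfand4, a zinc finger gene 76.6 kb away, was called as lost. It had 13 and 15 counts in cKO and 34 and 32 in wild type (log2 fold change −1.72 ± 0.40, adjusted p = 0.000976). Zfand4 was weakly marked as well, at a mean of 0.0585 CPM per kb in cKO and 0.195 in wild type. Marchf8, whose window overlaps that of Alox5, had 28 and 23 counts in cKO and 17 and 19 in wild type and was not called (0.01 ± 0.41, adjusted p = 0.996).

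**Figure D4:**
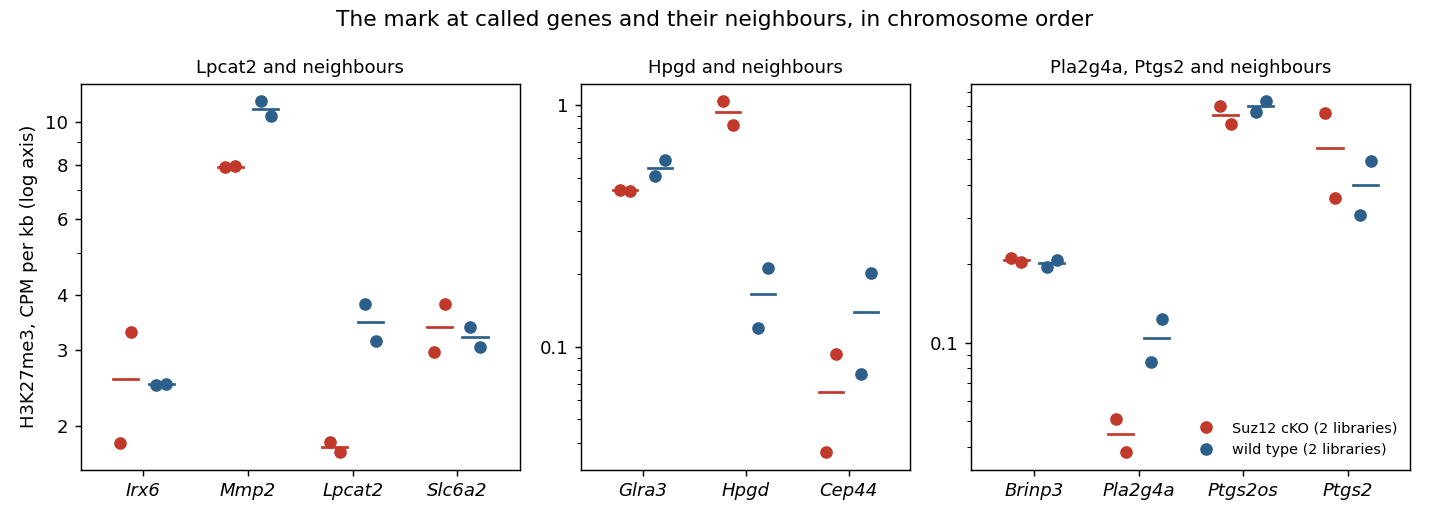
H3K27me3 in CPM per kb of window on log axes at the called enzyme genes and their neighbours in chromosome order, with points for the libraries and bars for the means of Suz12 cKO (red) and wild type (blue). Mmp2 and Lpcat2 are both lower in cKO while Slc6a2 is not, and Hpgd is higher in cKO while Glra3 and Cep44 are not.

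The neighbours of Alox15 and of Ptges differed from one side to the other. Alox12e, a lipoxygenase gene 21.4 kb from Alox15, had 5.90 and 5.82 CPM per kb in cKO and 5.38 and 5.22 in wild type, and was not called (log2 fold change 0.14 ± 0.14, adjusted p = 0.646). On the other side Pelp1, a nuclear receptor coregulator gene, held 9 and 6 counts in cKO and 8 and 9 in wild type. Alox15 thus lay between a marked and a nearly unmarked gene. Ptges was placed likewise: Prrx2, a homeobox gene 8.22 kb away, had 5.05 and 5.28 CPM per kb in cKO and 5.07 and 4.78 in wild type, while Tor1b, on the other side, held 3 and 5 counts in cKO and 7 and 0 in wild type. Prrx2 was not called (log2 fold change 0.07 ± 0.10, adjusted p = 0.791). The counted windows of Alox15 and Ptges were 38507 and 27723 bp shorter than the reference span with its flanks. Distances to their neighbours are therefore approximate and may not compare from side to side.

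The other genes of these pathways were called at about the share of all tested genes. Of 69 such genes in 7 lists, 52 were tested, 3 gained and 0 lost, so 5.77% were called against 6.42% of all tested genes. At an unadjusted p below 0.05 there were 9 higher and 1 lower in cKO (17.3% and 1.92% of the 52, against 10.3% and 8.26% of all tested genes), and DESeq2 called 1 gained and 0 lost. The median log2 fold change of the 52 genes was 0.09, against −0.01 over all tested genes. The 3 gained genes were Pafah2, Abcc4 and Ggt1. Pafah2, which encodes a PAF acetylhydrolase that inactivates PAF-like lipids, had 73.1 and 64.5 CPM in cKO and 44.2 and 38.9 in wild type (log2 fold change 0.72 ± 0.16, edgeR adjusted p = 0.00041). It was called under 11 of 12 alternatives, the exception being without cKO replicate 1 (adjusted p = 0.0588). Abcc4, an efflux pump that carries prostaglandins and leukotrienes, had 58.4 and 59.3 CPM in cKO and 34.5 and 44.4 in wild type (0.59 ± 0.17, adjusted p = 0.0125). Ggt1, a glutamyl transferase that trims leukotriene C, had 40.4 and 49.4 CPM in cKO and 33.0 and 27.5 in wild type (0.56 ± 0.19, adjusted p = 0.0469). Abcc4 was called under 7 of 12 alternatives and Ggt1 under 3 of 12, and neither was called without cKO replicate 1 (adjusted p = 0.0979 and 0.062), without cKO replicate 2 (0.166 and 0.562) or without wild-type replicate 1 (0.281 and 0.056). Nor was Ggt1 called without wild-type replicate 2 (adjusted p = 0.315). By reference positions 27.2% of the Ggt1 window was shared with others.

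By role, 14 of 18 other phospholipase A2 genes were tested and none was called, the lowest p being at Pla2g4e (log2 fold change 0.28 ± 0.12, adjusted p = 0.156). Of 7 prostanoid synthase genes 5 were tested and none was called. The lowest p there was at Tbxas1, the thromboxane synthase gene, with 19.3 and 14.9 CPM in cKO and 26.4 and 26.6 in wild type (−0.63 ± 0.24, adjusted p = 0.102). Among 7 genes of breakdown and transport 4 were tested and Abcc4 was the one gained. Of 9 prostanoid receptor genes 6 were tested and none was called, the lowest p being at Ptger3, a prostaglandin E receptor gene (0.28 ± 0.11, adjusted p = 0.115). All 13 other lipoxygenase and leukotriene enzyme genes were tested, and Ggt1 was the one gained. Of 7 leukotriene, lipoxin and resolvin receptor genes 5 were tested and none was called. All 5 had positive log2 fold changes, as did 8097 of all 16752 tested genes. The lowest p was at Ltb4r1, the leukotriene B receptor gene (0.51 ± 0.23, adjusted p = 0.186), whose window lay wholly within others. The value at Ltb4r2, whose window overlaps that of Ltb4r1, was smaller than its SE (0.08 ± 0.45). The most marked of these receptor genes was Cmklr1, a chemerin and resolvin receptor gene, at 15.3 CPM per kb in cKO and 13.7 in wild type (0.16 ± 0.08, adjusted p = 0.305), a gene chosen after its values were seen. Of 8 other PAF genes 5 were tested and Pafah2 was the one gained. Lpcat1, the close relative of Lpcat2 that acts in surfactant lipid synthesis, had 203 and 203 CPM in cKO and 188 and 193 in wild type (0.09 ± 0.10, adjusted p = 0.696) and was likewise named after its values were seen.

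**Figure D5:**
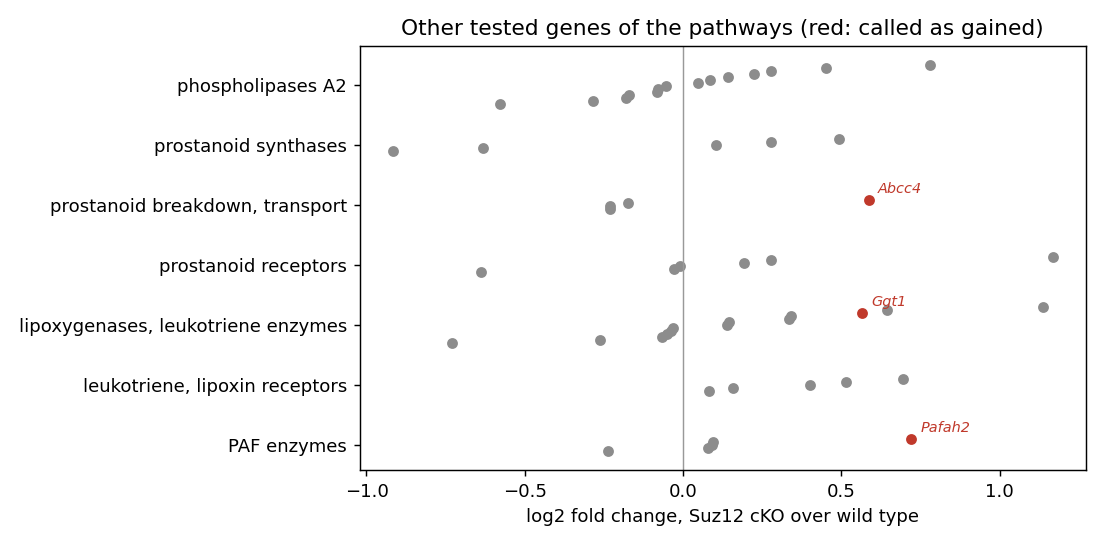
Log2 fold change of H3K27me3, Suz12 cKO over wild type, for the 52 tested genes of the 7 other pathway lists, a point per gene. The 3 red points are the genes called as gained, Abcc4 at 0.59, Ggt1 at 0.56 and Pafah2 at 0.72, and the grey points were not called.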

How the data were processed

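The authors deposited a table of whole-number counts per Entrez gene window for 4 libraries, each from 100000 cells, 0.5 µg of antibody and paired 36 bp reads per the labels and design text. The submitters' processing notes name featureCounts and mm10; the aligner, the handling of duplicates and the counting settings are not stated there. Symbols and positions came from the RefSeq GRCm38.p6 table (25204 IDs matched). Deposited window lengths of 7 members lay within 310 bp of the reference span plus 3000 bp on each side; those of Ptgs1, Ptges and Alox15 were 20008, 27723 and 38507 bp shorter, so overlaps, taken from reference positions, are approximate. Reads in overlapping windows may not have been counted, so the levels of overlapped genes such as Ltc4s and Ptgs2 may be too low. Genes wholly within other windows by reference positions differed in this. Pla2g2a and Gpr18 held 0 counts in every library, while Ltb4r1 held 98 and 95 in cKO and 50 and 46 in wild type. How shared reads were counted was not tested.

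The genotypes were compared with edgeR 4.0.16 under R 4.3.3 (filterByExpr, TMM factors, glmQLFit and glmQLFTest, genotype as the only term), with Benjamini-Hochberg adjustment over 16752 tested genes; 10343 were filtered out. Every adjusted p is from this test unless DESeq2 1.42.0 is named. SE is the size of the fitted log2 coefficient, before the shrinkage applied to the printed log2 fold change, divided by the square root of F. With simulated counts for this comparison (16070 genes run), 24% of 1.5-fold, 39.6% of 2-fold, 80% of 3-fold and 84.8% of 4-fold changes were recovered. There 1 unchanged gene was called. The changes were placed only in genes above a minimum mean count, with a spread set by count level alone. Changed genes that the filter removed were left out, so the shares are of 50, 48, 50 and 46 genes. These rates need not hold for the weakly marked members. The members, pathway lists, neighbours and named genes were chosen with earlier results of these data known. The text names all members, the called genes or lowest p of each pathway list, called neighbours, the flanks of Hpgd and Lpcat2, and a few uncalled flanks of other members, chosen after their values were seen. Same-numbered replicates did not deviate together (see the closing section).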

Additional observations from a re-analysis of the deposited data

How the results depend on the processing

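Hpgd and Lpcat2 kept their direction and their call under all 12 alternatives run; Pla2g4a kept its direction in all 10 that gave it an adjusted p and its call in 7. The alternatives refit the same 4 libraries, and the members were chosen with this contrast known. A kept call is therefore no separate support for a change. With 2 libraries a genotype, a left-out library leaves a lone one that is assumed to vary like the others. Leaving out each library in turn gave 350 to 738 gained and 76 to 207 lost genes over all genes (747 and 329 with all libraries), 1 to 2 lost members, 0 to 2 gained pathway genes and 1 to 2 lost neighbours. Upper-quartile factors gave 494 gained and 519 lost genes and 1 gained pathway gene, Pafah2. Housekeeping scaling, which shifted the median log2 fold change of all genes by 0.13, gave 96 lost genes, 1 lost member, Lpcat2 at −0.83, and 1 lost neighbour, Zfand4. DESeq2 gave 322 gained and 45 lost genes, 1 lost member, 1 lost neighbour, Mmp2, and 1 gained pathway gene, Pafah2, with no adjusted p for Pla2g4a or Zfand4. In the fit of genes averaging at least 50 counts, 1 member was lost, since Pla2g4a was not tested, and 1 pathway gene, Tbxas1, was lost. The cause of the other differences was not tested. Irx6 and Slc6a2, neither of them called, changed sign: Irx6 to −0.0135 with library totals, −0.0436 with upper-quartile factors and −0.0115 at 50 counts or more, and Slc6a2 to −0.00969 with upper-quartile factors. Over the left-out libraries Irx6 ran from −0.44 to 0.41 and Slc6a2 from −0.12 to 0.25. Deviations of same-numbered libraries correlated at 0.00844 over genes, so the numbers were not taken to pair samples. With the replicate block, 733 genes gained and 306 lost, 1 member gained and 2 lost, and Ggt1 was not called (adjusted p = 0.052). Depth limits the group: 6 of the 10 genes averaged under 50 counts. The p-values weigh the genotype difference against a spread estimated from these 4 libraries alone.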
